A study of Mus musculus with 18 samples.

Results

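Hearts with 6 weeks of pressure overload and a switched-on Akt transgene were compared with hearts taken before the operation, over every probe set that carried 1 gene symbol. The comparison used 6 of the study's 9 hearts, 3 in each group, and 12 of its 18 arrays. It covered 35041 of 45265 probe sets: 20380 on chip 430A and 14661 on chip 430B of the Affymetrix mouse expression set. All groups were male mice of the same genotype, Tet-myrAkt1/αMHC-tTA, with heart tissue as the source. The transgene encodes myrAkt1, a constitutively membrane-bound form of the kinase Akt1, under a tetracycline-regulated promoter, and its driver, the transactivator tTA, is under the αMHC promoter, which is active in heart muscle cells. The first group, labelled control in the titles, was taken before AAC, the operation that imposes the pressure load, at a labelled age of 8 weeks. The second was taken 6 weeks after AAC with Akt on. The titles of this second group give 3 weeks of Akt and the descriptions 2 weeks, and its labelled age of 12 weeks equals that of the 3 hearts taken 4 weeks after AAC without Akt on, which serve below only for side-by-side values. The design has neither an unoperated group with Akt on nor a 6-week group without it, so the operation, the time since it, age and the Akt switch cannot be told apart in the comparison with hearts before AAC. The labels do not say whether each RNA came from 1 animal, so p-values measure the spread between these samples, called hearts here. In whole-heart RNA, fewer cells of a type and less RNA per cell cannot be told apart.

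Akt is the serine/threonine kinase at the centre of insulin and IGF signalling: PI3-kinase makes the lipid that brings Akt to the membrane, Akt phosphorylates and inactivates FoxO transcription factors and GSK3, and it activates mTOR and with it protein synthesis. In heart muscle it is known for driving growth of the myocyte, for increasing glucose uptake and for restraining the FoxO-dependent genes of protein breakdown. Pressure overload alone is known for re-expression of fetal muscle genes, deposition of matrix and lower expression of genes of oxidative metabolism.

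All values are log2 of the deposited signal unless a fold is given, and a difference is the mean with Akt on minus the mean before AAC. A probe set was called when its limma test gave an adjusted p under 0.05 over both chips. The difference given for a gene is that of 1 probe set, and its other probe sets may differ. Among 9040 genes with several probe sets, 30 had probe sets called each way. Median signals of the 6 hearts were 186 to 207 on chip 430A and 64.2 to 70.5 on chip 430B, and the median standard error of a difference was 0.32, so that the number of hearts, 3 a group, limits the precision. The RNA measures differed between the groups: the 3′/5′ ratio of the β-actin control probe sets on chip 430A was 1.49, 1.95 and 2.04 before AAC and 1.22, 1.09 and 1.04 with Akt on, and those of Gapdh also did not overlap (1.07 to 1.32 against 0.81 to 0.93; exact two-sided permutation p = 0.1 for each, the smallest that 3 against 3 allows). With the β-actin ratio as a covariate no probe set was called by limma (2597 had an unadjusted p under 0.05), and none of the named called genes changed the sign of its difference. This ratio and the group largely coincide, and the part of RNA quality in the results was not tested further. The content of atrial muscle varied between hearts within both groups: the summed signal of 10 atrial markers ran from 7141 to 99718 before AAC and from 8197 to 78104 with Akt on, and none of them was called. Myh6, a myosin of heart muscle, read 14.07 to 14.67 in every heart in 1 probe set. Its second probe set read 9.15 to 11.04 in the 6 hearts. Myh6 was not used to tell ventricular from atrial muscle.

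Akt1, the gene the transgene carries, was measured by 4 probe sets. The probe set that was called read 9.47, 8.58 and 8.95 before AAC and 11.35, 11.88 and 12.67 with Akt on. All 3 hearts labelled Akt on lay above all others, with a difference of 2.97 ± 0.32 (SE), 7.82-fold, at an adjusted p of 0.00118. The 3 hearts at 4 weeks read 9.16, 9.68 and 9.84, so that the Akt-on hearts were also higher than these (difference 2.41, adjusted p = 0.00717). The remaining probe sets of Akt1 differed by -0.41, 0.09 and -0.01 and were not called. Which probe sets match the transgene's message is not given in the sources used here.

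Of the 35041 probe sets, 2632 were called (7.51%), 1482 of them higher with Akt on (4.23%) and 1150 lower (3.28%). In 2625 of these calls every heart of 1 group lay above every heart of the other. With 3 hearts a group a call nearly requires this, so it adds no support to the calls. The median size of a called difference was 0.92, and 1136 calls reached a size of 1, a doubling of the signal. Taken as 1 probe set a gene, 1437 of 18193 genes were called (7.90%), 713 higher (3.92%) and 724 lower (3.98%), and the median difference of all genes was -0.01. Calls were more frequent at high signals. The 21872 probe sets kept by a filter for the 60% with the highest signal held at least 2403 of the 2632 calls. The share over all genes is therefore a low comparison for lists of genes with high signals. Between Akt on at 6 weeks and the 4-week hearts, 441 probe sets were called (1.26%). The number of calls depended on single hearts: it was 968 without before-AAC heart 3, 1286 without before-AAC heart 2, 1589 without before-AAC heart 1, 1316 without Akt-on heart 2 and 1220 without Akt-on heart 3, against 3095 without Akt-on heart 1. Of 143 named called probe sets, 94 kept their call without each heart in turn, and for most lists the hearts that moved a count by over 1.5 times are named beside it. Called members of lists that are given beyond the naming rule were chosen after their values were seen.

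**Figure D1:**
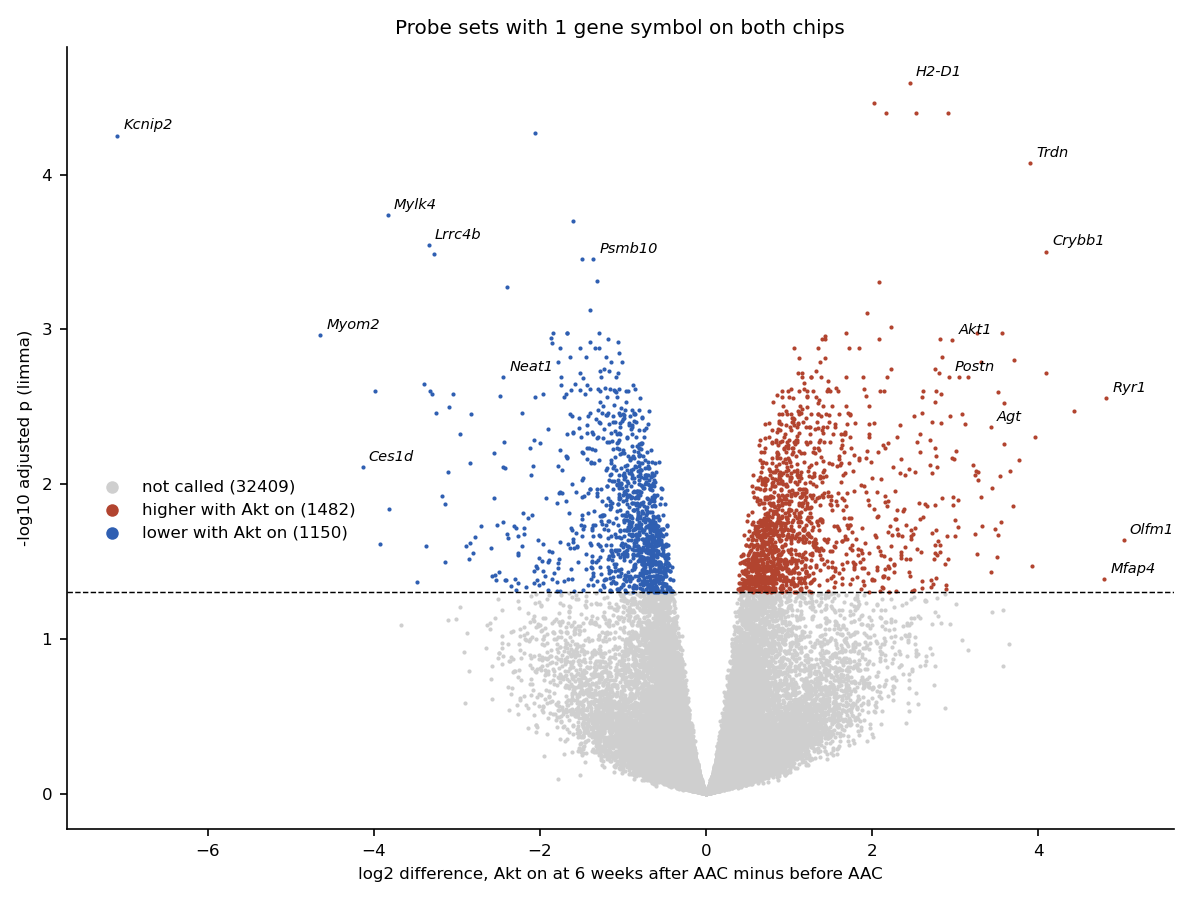
Log2 difference of each probe set, Akt on at 6 weeks minus before AAC (horizontal axis), against -log10 of limma's adjusted p (vertical axis), with 1482 probe sets called higher in red, 1150 called lower in blue and the rest in grey. Kcnip2 stands farthest to the left at -7.10, and Olfm1, Ryr1 and Mfap4 farthest to the right at 5.03, 4.82 and 4.80.

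The largest fall in the comparison was that of Kcnip2, which encodes KChIP2, the accessory subunit that brings Kv4 channels to the surface and so sets the transient outward potassium current of the ventricle. Its probe set on chip 430B read 11.65, 11.62 and 11.73 before AAC and 4.72, 4.60 and 4.39 with Akt on. The signal went from the upper range of the chip to below its median of 6.18 in all 3 hearts, a difference of -7.10 ± 0.48, 137-fold (adjusted p = 5.61e-05). At 4 weeks it read 10.17, 9.73 and 12.21, above the unoperated hearts in 1 heart and below them in the other two, and the Akt-on hearts were lower than these by 6.13 (adjusted p = 0.000454). A probe set on chip 430A fell by 3.82 (adjusted p = 0.0144), and another there, at 6.00 to 7.27 in these 6 hearts, differed by -0.32 and was not called. The pore-forming partners are read by several probe sets: of 4 for Kcnd3, 1 was called (-2.40, adjusted p = 0.0414), and of 4 for Kcnd2 none was (-0.29 to 0.83). The called probe set of Kcnd3 had low signals, 5.74 to 6.54 before AAC and 2.98 to 4.52 with Akt on, below the median of 7.59 of chip 430A. The Kcnd3 probe set with the highest signal differed by -0.25 and was not called. In the channel list below, which takes 1 probe set a gene from chip 430A first, Kcnip2 is represented by the probe set on that chip that was not called. Kcnd3 is represented there by its called probe set of low signal.

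In the list of ion channels, gap junctions and adrenergic receptors, 5 of 23 genes were lower and 1 higher, with a median difference of -0.17. Gja1, the main gap junction protein of the ventricle (connexin 43), read 12.94, 12.74 and 12.74 before AAC and 11.94, 11.38 and 11.54 with Akt on, a difference of -1.19 ± 0.19 (adjusted p = 0.00531), and 4 of its 6 probe sets were lower. Kcnj8 and Abcc9 encode the pore and the sulfonylurea receptor of an ATP-sensitive potassium channel and are also markers of pericytes and smooth muscle. Kcnj8 fell from 10.07, 9.58 and 10.21 to 8.52, 8.85 and 8.80 (-1.23, adjusted p = 0.00443). Abcc9 fell by 1.36 (adjusted p = 0.0216) with all of its 3 probe sets lower, and was also below the 4-week hearts (-1.76, adjusted p = 0.0205). The 1 gene that rose was Adra1b, an α1-adrenergic receptor (1.03, adjusted p = 0.0195). The number of lower genes was 2 without before-AAC heart 1, before-AAC heart 3 or Akt-on heart 2 and 3 without before-AAC heart 2. The calls of Abcc9 and Adra1b ended without some single hearts, before-AAC heart 3 among them.

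**Figure D2:**
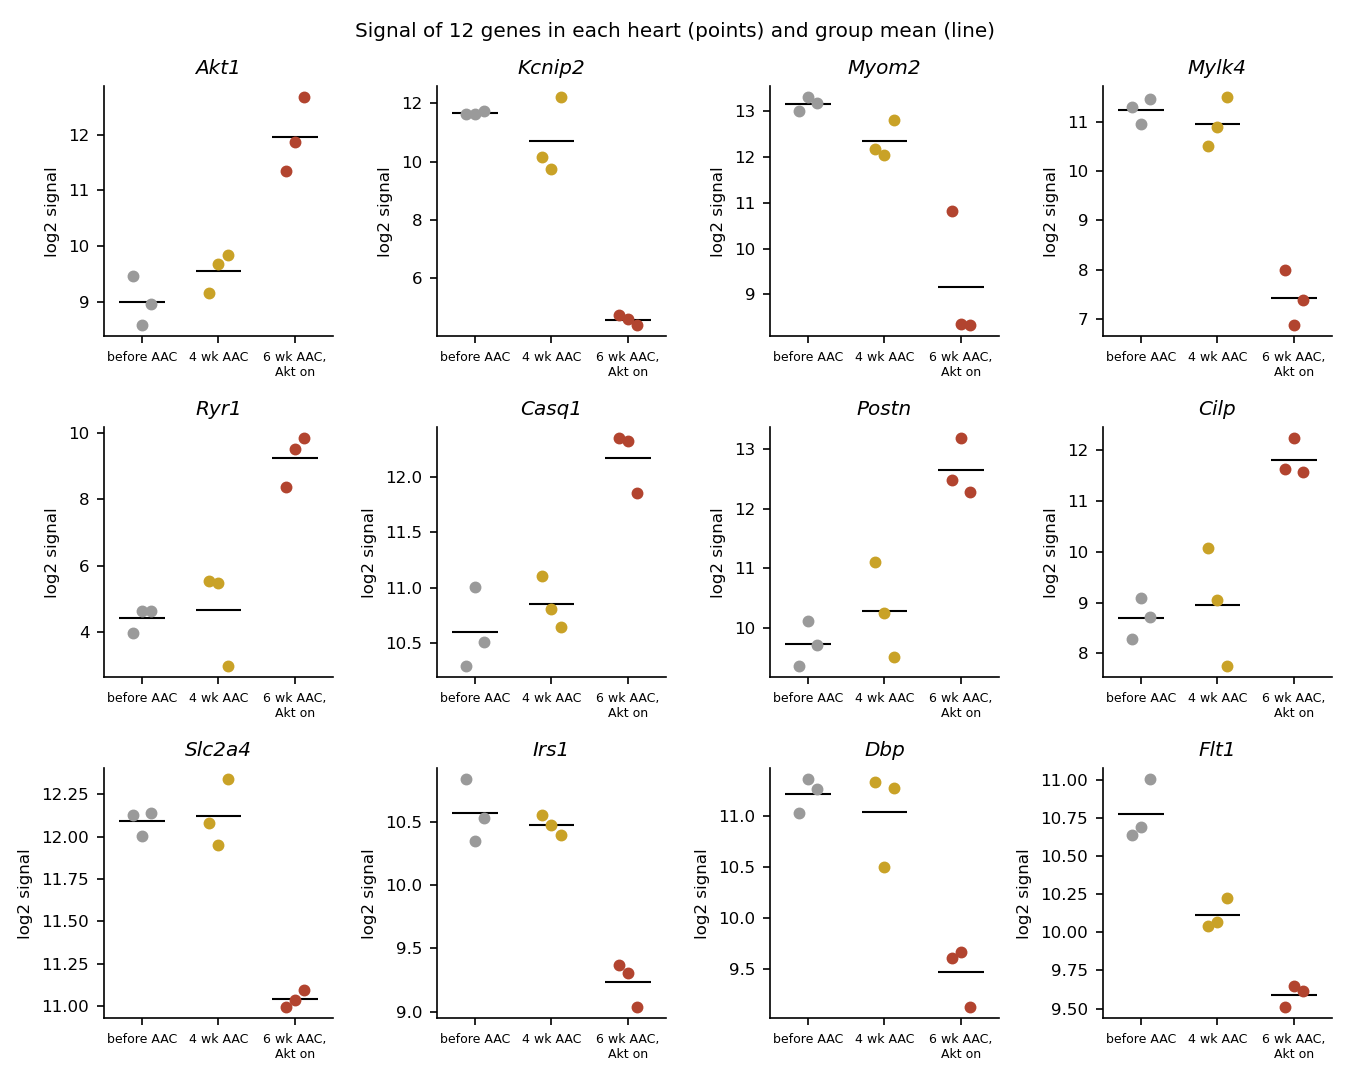
Log2 signal (vertical axes, a separate range in each panel) of 12 genes in each of the 9 hearts (points), by group, with the group mean as a line. In all 12 panels the Akt-on hearts lie apart from the hearts before AAC; Kcnip2, Myom2 and Mylk4 show the widest gaps downwards and Ryr1 the widest upwards.

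Among sarcomere genes the largest fall was that of Myom2. This gene encodes the myomesin that cross-links thick filaments in the M-band of adult fast-contracting muscle, and it read 13.00, 13.29 and 13.17 on chip 430A before AAC and 10.81, 8.35 and 8.33 with Akt on. Akt-on heart 1 lay between the other two and the unoperated hearts, and the difference was -3.99 ± 0.52, 15.9-fold (adjusted p = 0.00251). On chip 430B, a probe set fell by 4.65 (adjusted p = 0.00109) and another fell by 3.33 (adjusted p = 0.00251), while the fourth, at a low signal of 3.08 to 5.61, differed by 1.84 and was not called. The Akt-on hearts were also below the 4-week hearts, by 3.17 (adjusted p = 0.0169).

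A pair of kinases of the myosin light chain fell with it. Mylk4, a myosin light chain kinase of striated muscle, read 11.31, 10.97 and 11.47 before AAC and 7.98, 6.87 and 7.39 with Akt on, a difference of -3.84 ± 0.29, 14.3-fold (adjusted p = 0.000183). The 4-week hearts, at 10.51, 10.90 and 11.50, overlapped the unoperated hearts, and the Akt-on hearts were 3.56 lower (adjusted p = 0.000605). Mylk3, the cardiac myosin light chain kinase, fell from 11.01, 11.81 and 11.51 to 10.38, 9.63 and 10.09 (-1.41, adjusted p = 0.00589). In the whole list of adult contraction and sarcomere genes 5 of 26 were lower and 3 higher. Beside Myom2 and Mylk3, Tcap, Ttn and Tnni3 fell by 0.65, 0.56 and 0.48. Those that rose were Flnc, an actin cross-linker of the Z-disc (1.21, adjusted p = 0.00269), Nebl, the cardiac nebulette (1.96 with all of its 3 probe sets higher, adjusted p = 0.00499), and Smyd1 (1.00), a methyltransferase needed for sarcomere assembly. With quantile scaling 2 genes of the list were lower instead of 5, and 2 were lower without any 1 of the hearts before AAC or without Akt-on heart 3. The α-myosin heavy chain Myh6 differed by -0.38 and 0.94 in its 2 probe sets and the β-myosin heavy chain Myh7 by -1.01 (10.82 to 11.50 before AAC and at 4 weeks, but 11.32, 10.23 and 9.28 with Akt on; adjusted p = 0.145), and neither was called.

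Genes of the calcium release unit changed in a pattern that differed from gene to gene. Ryr1 is the calcium release channel of skeletal muscle; the heart's own channel is Ryr2. Its probe set on chip 430A read 3.97, 4.64 and 4.63 before AAC, among the low signals of the chip, and 8.38, 9.50 and 9.83 with Akt on, above the chip's median of 7.59. The difference was 4.82 ± 0.65, 28.3-fold (adjusted p = 0.00279), and the second probe set, on the other chip, rose by 3.32 (adjusted p = 0.0122). The 4-week hearts, at 5.55, 5.46 and 2.98, had low signals like the unoperated hearts, and the Akt-on hearts were 4.57 above them (adjusted p = 0.00951). Casq1, the skeletal form of the calcium-binding protein calsequestrin, rose from 10.29, 11.00 and 10.51 to 12.35, 12.32 and 11.85 (1.57 ± 0.20, adjusted p = 0.00239). It was also above the 4-week hearts (1.32, adjusted p = 0.0124), and Casq2, the cardiac form, rose by 0.51 (adjusted p = 0.0371).

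Triadin (Trdn), which anchors calsequestrin to the release channel and is made in several splice forms, changed in some of its probe sets only. The one that rose most read 6.04, 6.25 and 6.11 before AAC and 9.81, 9.67 and 10.62 with Akt on (3.90 ± 0.28, 14.9-fold, adjusted p = 8.43e-05). At 4 weeks it was lower still, 5.30, 5.18 and 5.31, so that the difference from those hearts was 4.77 (adjusted p = 7.68e-05). A second rose by 1.01 (adjusted p = 0.00956), and the other 4 differed by 0.06 to 0.63 and were not called. Asph, whose locus encodes junctin and junctate beside a hydroxylase, likewise had 2 probe sets higher (2.09 and 1.12), 1 lower (-0.72) and 3 not called. Which transcripts each probe set matches is not given in the sources used here.

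Of the 21 genes of calcium handling, 4 were higher and 2 lower. Cacna2d1, an auxiliary subunit of the calcium channel, rose by 0.84 with 4 of its 5 probe sets higher, and Slc8a1, the sodium-calcium exchanger, rose by 1.02 (adjusted p = 0.0443). Itpr2, an inositol trisphosphate receptor, fell by 1.17 (adjusted p = 0.0291) in 1 of 6 probe sets. Atp2a2, the calcium pump SERCA2 that refills the store, differed by -0.26 (adjusted p = 0.304) in the probe set with the highest signal, 14.33 to 14.89 in the 6 hearts. Its other 5 probe sets differed by -1.48 to -0.39, and 3 of them were called lower. Pln, the pump's inhibitor phospholamban, was lower in 1 of 3 probe sets (-0.56, adjusted p = 0.0319). The number higher in the list was 1 without before-AAC heart 3, Akt-on heart 2 or Akt-on heart 3 and 2 without before-AAC heart 1, before-AAC heart 2 or 4-week heart 2. The call of Casq1 was kept without each heart, and those of Asph, Cacna2d1 and Itpr2 were not.

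**Figure D3:**
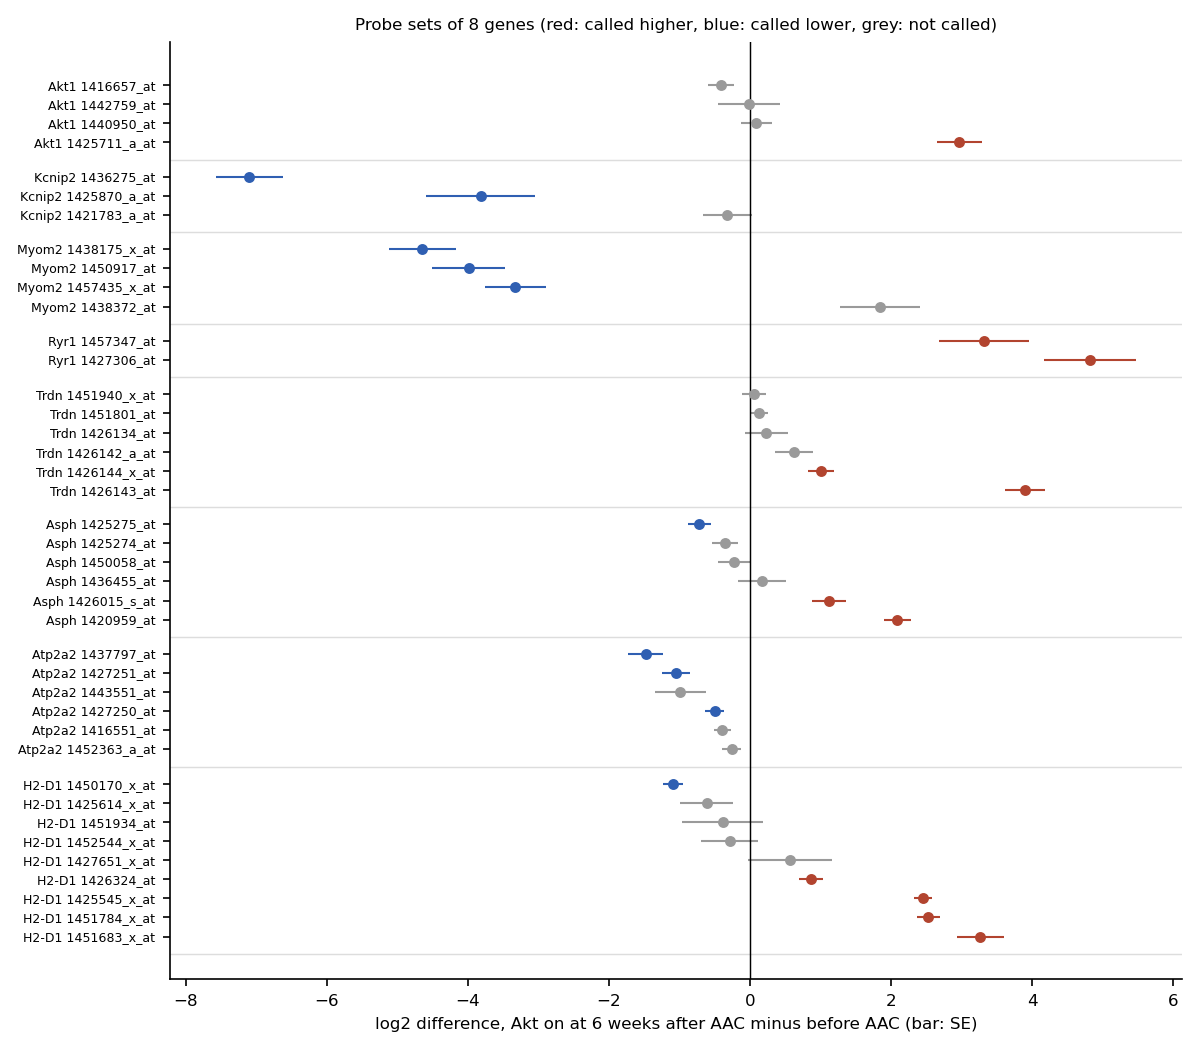
Log2 difference, Akt on at 6 weeks minus before AAC, with its standard error (bar), for each probe set of 8 genes; red marks those called higher, blue those called lower and grey those not called. Both probe sets of Ryr1 and 3 of 4 of Myom2 were called in the same direction; of Trdn 2 of 6 were called, both higher, and Asph and H2-D1 have probe sets called each way.

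The stress and fetal genes of the heart were called in 3 of 26 cases, each higher (11.5%, against 7.90% of all genes called). Of these 26 genes, 23 had a mean signal at or above the chip's median, so this share shows no excess beyond signal level. Acta1, the skeletal α-actin that is re-expressed in loaded hearts, read 12.29, 13.41 and 12.80 before AAC and 14.25, 14.79 and 14.56 with Akt on (1.70 ± 0.25, adjusted p = 0.0041). The 4-week hearts lay at 13.91 to 14.42, and the Akt-on hearts differed from them by 0.37 (adjusted p = 0.535). Timp1, an inhibitor of matrix proteases, rose by 1.64, and Ankrd23, a stretch-responsive ankyrin repeat protein, by 1.39 (call lost without before-AAC heart 3). The natriuretic peptides were not called. Nppa differed by -0.50 ± 0.88 (adjusted p = 0.805), with 11.86 to 15.10 before AAC and 12.34 to 14.46 with Akt on, in hearts whose atrial markers varied in the same way. Nppb read 12.97, 13.14 and 12.93 before AAC and 12.31, 12.81 and 11.80 with Akt on; all 3 lay below the unoperated hearts, but the difference of -0.71 had an adjusted p of 0.0762, and that from the 4-week hearts, -0.99, an adjusted p of 0.0546.

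The extracellular matrix held the most rises of any list. Of 66 genes, 20 were higher and 2 lower, against 3.92% and 3.98% of all genes, and the median difference was 0.44. Postn, periostin, a matricellular protein of activated fibroblasts, read 9.36, 10.11 and 9.71 before AAC and 12.49, 13.18 and 12.27 with Akt on, a difference of 2.92 ± 0.36, 7.58-fold (adjusted p = 0.00204). At 4 weeks it read 11.11, 10.25 and 9.50, which overlapped the unoperated hearts, and the Akt-on hearts were 2.36 higher (adjusted p = 0.0125). Cilp, a protein of cartilage and of the scarred heart, rose from 8.28, 9.08 and 8.72 to 11.63, 12.24 and 11.57 (3.12 ± 0.46, 8.69-fold, adjusted p = 0.00408), and was also above the 4-week hearts (2.86, adjusted p = 0.0158). Thbs1, thrombospondin 1, which activates latent TGF-β, rose from 6.69, 6.90 and 6.95 to 8.18, 8.56 and 8.36 (1.52, adjusted p = 0.00472), and was 1.45 above the 4-week hearts (adjusted p = 0.0158).

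Among the fibrillar collagens Col5a2 rose from 9.49, 9.62 and 9.40 to 10.99, 11.72 and 10.70 (1.63, adjusted p = 0.00519), Col1a2 by 1.03 (adjusted p = 0.0284) and Col3a1 by 0.90 (adjusted p = 0.0334). All 3 were also above the 4-week hearts, by 1.52, 1.21 and 1.14. Col1a1 had 1 probe set higher (1.29, adjusted p = 0.0375) and 1 not called (0.68, adjusted p = 0.227). Col8a1, a short-chain collagen, rose in each of its 3 probe sets, most in the one that went from 4.65, 4.30 and 3.41 to 7.50, 9.11 and 8.03 (4.10, 17.1-fold, adjusted p = 0.00192). The 4-week hearts had 5.79 to 6.80 in that probe set. Mfap4, a microfibril protein, had the largest difference of the list (4.80, adjusted p = 0.0412), but 1 of the 4-week hearts was as high as the Akt-on hearts and the call ended without any 1 of the hearts before AAC or with Akt on. The 2 genes that fell were Tgfb1 (-0.58) and Ogn (-0.48); the number lower was 0 without before-AAC heart 2 or 3 or Akt-on heart 2 or 3, 1 without before-AAC heart 1 and 5 without Akt-on heart 1. Tnc (2.15), Thbs4 (2.58), Ltbp2 (1.87), Vcan (1.26), Mmp14 (0.75), Sparc (0.71) and Lox (1.11), the cross-linking enzyme of collagen, were among the remaining rises. The number higher in the list was 9 without before-AAC heart 1, before-AAC heart 3 or Akt-on heart 2, and 12 without before-AAC heart 2. The median of the list lay between 0.29 and 0.61 without each heart in turn, and at 0.77 with the β-actin ratio as a covariate. Of 12 fibroblast markers, 3 were higher (Col1a2, Col3a1 and Pcolce) and Gsn lower; their summed signal was 60505 to 65811 before AAC and 50475 to 69894 with Akt on, which overlap. The calls of these 4 markers ended without any 1 of the hearts before AAC.

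**Figure D4:**
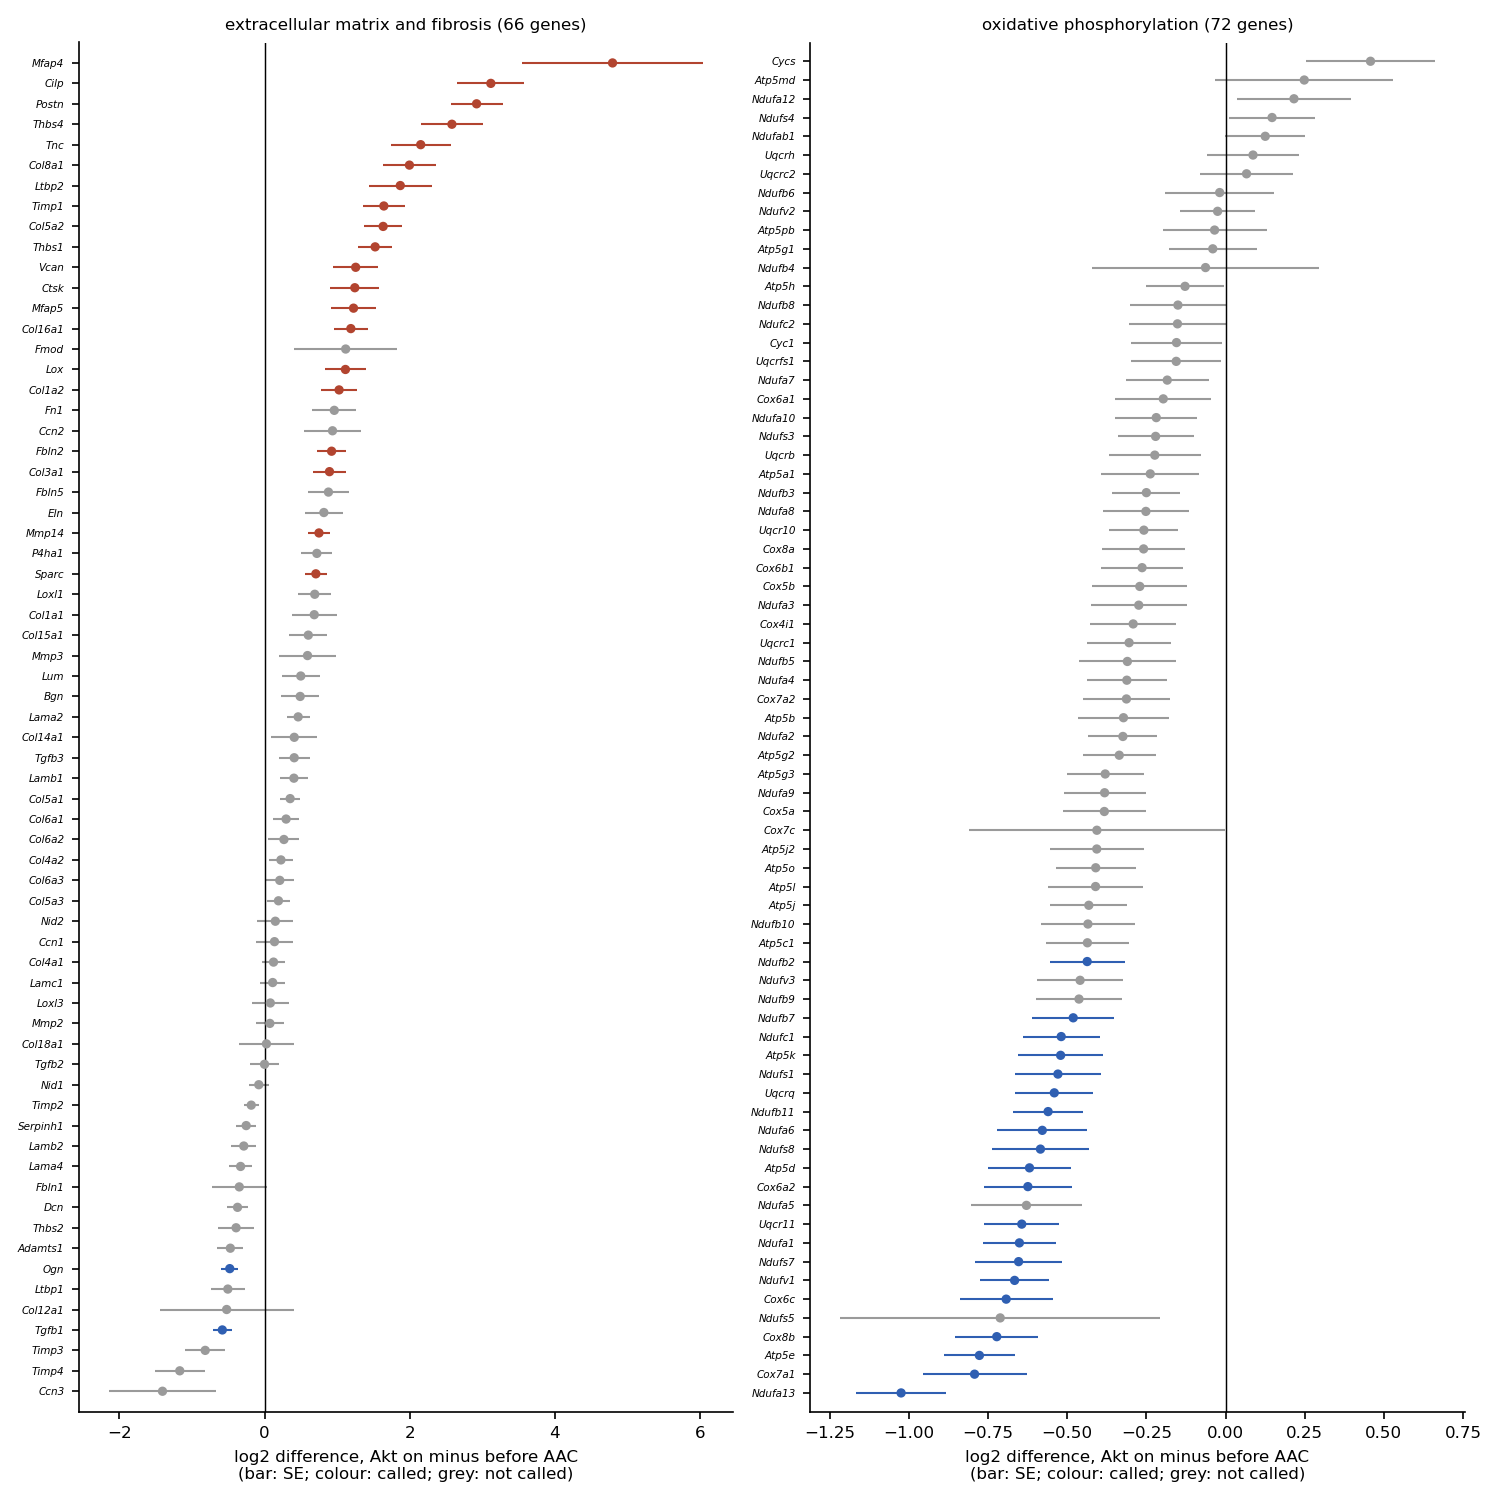
Log2 difference, Akt on at 6 weeks minus before AAC, with its standard error, for each of 66 genes of the extracellular matrix (left) and 72 of oxidative phosphorylation (right), red where called higher, blue where called lower and grey where not called; the horizontal ranges of the panels differ. The matrix genes reach 4.80 and 20 are higher, while those of oxidative phosphorylation lie between -1.02 and 0.46 and 20 are lower.

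Among angiogenic factors and their receptors, 9 of 34 were lower and 1 higher, with a median difference of -0.51. Flt1, the VEGF receptor 1, read 10.64, 10.69 and 11.00 before AAC and 9.51, 9.65 and 9.62 with Akt on (-1.18 ± 0.13, adjusted p = 0.00116). Kdr, the main signalling receptor for VEGF, fell from 11.97, 11.87 and 12.06 to 10.95, 10.92 and 10.67 (-1.12, adjusted p = 0.00361). At 4 weeks Kdr was already 10.71 to 11.38, and the Akt-on hearts differed from those by -0.17 (adjusted p = 0.683).

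The co-receptor Nrp1 fell by 0.77 with 3 of its 4 probe sets lower, and Notch1, which restrains sprouting, by 0.88 with both of its probe sets lower. Tie1 fell by 0.82 and Tek, the receptor of the angiopoietins, by 0.52, and the gene that rose was Vegfd (1.00). The ligands Vegfa and Angpt2 differed by -0.51 (adjusted p = 0.0798) and -1.30 (adjusted p = 0.473) and were not called. Of 14 endothelial markers, 6 were lower (Flt1, Kdr, Egfl7, Tie1, Tek and Esam), with differences from -1.18 to -0.52, and none was higher; their summed signal was 31188 to 34354 before AAC and 20337 to 22771 with Akt on. Of 12 markers of smooth muscle and pericytes 4 were lower (Kcnj8, Abcc9, Rgs5 and Notch3) and 1 higher (Smtn), with a sum of 22009 to 24127 before AAC and 14785 to 17256 with Akt on. Neither sum overlapped between these groups. This was not particular to these markers. The sums of oxidative phosphorylation and of antioxidant genes did not overlap either, while those of fibroblast and macrophage markers did. At 4 weeks the endothelial and pericyte sums were 23536 to 27761.4 and 17936.8 to 21112.5, also below the hearts before AAC and above the Akt-on hearts. The number of lower angiogenic genes was 5 without before-AAC heart 3, that of endothelial markers 3 without before-AAC heart 3 or Akt-on heart 3, and that of pericyte markers 1 without before-AAC heart 1 or 3 and 2 without before-AAC heart 2, Akt-on heart 1 or Akt-on heart 3. With the β-actin ratio as a covariate the median of the angiogenic list was -0.43. Flt1, Kdr, Egfl7, Nrp1, Notch1 and Kcnj8 were called without each heart in turn.

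In oxidative phosphorylation 20 of 72 genes were lower and none higher, the median difference was -0.32, and the called ones ran from -1.02 to -0.44. Ndufa13, a complex I subunit, read 14.21, 14.27 and 14.53 before AAC and 13.22, 13.53 and 13.19 with Akt on (-1.02 ± 0.14, adjusted p = 0.00321). Atp5e, a subunit of the ATP synthase, fell from 13.51, 13.46 and 13.47 to 12.67, 12.87 and 12.57 (-0.78, adjusted p = 0.00375). Ndufv1, which holds the NADH site of complex I, fell by 0.67 with all of its 3 probe sets lower, and the muscle forms Cox8b, Cox7a1 and Cox6a2 of cytochrome oxidase fell by 0.72, 0.79 and 0.62. Ndufa13, Atp5e, Ndufv1 and Ndufa1 did not differ beyond the threshold from the 4-week hearts, the differences being -0.34 to -0.15.

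These small shifts of very high signals depended on the scaling of the arrays. With quantile scaling 6 genes of oxidative phosphorylation were lower and 1 higher, and the median was -0.11. The number lower was 7 without before-AAC heart 1 or 3, 9 without before-AAC heart 2 and 8 without Akt-on heart 3. With the β-actin ratio as a covariate the median was -0.55. In the TCA cycle and pyruvate dehydrogenase list 8 of 27 were lower, among them Got2 (-0.70), Idh2 (-0.68), Cs (-0.65) and Ogdh (-0.61). With quantile scaling 2 were lower and the median went from -0.20 to 0.00. The number lower was 1, 3 and 0 without before-AAC heart 1, 2 and 3, and 3 and 2 without Akt-on heart 2 and 3. The 3 that were higher were parts of the pyruvate dehydrogenase complex, Pdhx (1.21, from 10.01, 9.82 and 9.90 to 10.81, 11.21 and 11.35, adjusted p = 0.00272) and Dlat (0.96), and the isocitrate dehydrogenase subunit Idh3a (0.64). Dlat had 2 probe sets higher and 1 lower, and Got2 had 1 of 4 lower, with differences from -1.08 to 0.45.

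Transcripts of fuel uptake and use differed at single steps, while uptake itself was not measured. Slc2a4, the insulin-responsive glucose transporter GLUT4, was 12.13, 12.00 and 12.14 before AAC and 11.00, 11.04 and 11.10 with Akt on, with a difference of -1.05 ± 0.12, 2.07-fold (adjusted p = 0.00142). The 4-week hearts, at 12.08, 11.95 and 12.34, overlapped the unoperated hearts, and the Akt-on hearts were 1.08 below them (adjusted p = 0.00312). The second probe set of Slc2a4 differed by -0.31 and was not called. The other transporter called, Slc2a12, fell by 1.06 (adjusted p = 0.0134).

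Hk2, the hexokinase that traps glucose in muscle, fell by 0.84, Ldhb, the lactate dehydrogenase form of oxidative tissue, by 0.74, and Pdk2, the kinase that inactivates pyruvate dehydrogenase, by 0.71 (adjusted p = 0.00618). Pfkp, the platelet form of phosphofructokinase, rose by 0.90 and Pgam1, the phosphoglycerate mutase, by 0.79 (adjusted p = 0.00684). In all, 6 of 31 genes of glycolysis and glucose uptake were lower and 3 higher; the 6 became 3 without before-AAC heart 3 and 4 with quantile scaling, where 6 were higher, and 5 were higher without 4-week heart 3. In fatty acid uptake and oxidation 6 of 44 were lower and 1 higher. They included Lpl, the lipoprotein lipase of the capillary wall (-0.73, both probe sets lower, adjusted p = 0.00697), Oxct1, the enzyme that activates ketone bodies (-0.95, adjusted p = 0.00504), Etfb, a carrier of electrons from fatty acid oxidation (-0.56, adjusted p = 0.0224, not called with quantile scaling), and Dgat2, of triglyceride synthesis (-1.09, adjusted p = 0.0219). The call of Dgat2 ended without before-AAC heart 1, before-AAC heart 3 or Akt-on heart 2, and of that list 2 genes were lower without before-AAC heart 1 or 3 and 3 without before-AAC heart 2, Akt-on heart 2 or Akt-on heart 3 or with quantile scaling. Cpt1b, the muscle form of the transferase that admits fatty acids to mitochondria, was not tested here. Ppargc1a, the coactivator PGC-1α that drives mitochondrial genes, differed by -0.59 (adjusted p = 0.408) in its main probe set, and 3 of its 5 probe sets were lower. Among creatine and adenine nucleotide genes Gamt, the last enzyme of creatine synthesis, rose by 1.55 (adjusted p = 0.00409), and Ckb, the brain form of creatine kinase, by 0.86, and Vdac3, a channel of the outer mitochondrial membrane, fell by 0.44; the calls of Ckb and Vdac3 ended without before-AAC heart 1 or 3, among others.

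In the list of sterol and fatty acid synthesis 4 of 40 were higher and 1 lower (12.5% called, against 7.90% of all genes). Of the 40, 29 had a mean signal at or above the chip's median. Fdps, of the mevalonate pathway, rose from 8.37, 8.51 and 8.23 to 9.26, 9.54 and 9.68 (1.12, adjusted p = 0.00341). Thrsp, a regulator of lipogenesis, rose by 1.63, Scd2, a desaturase, by 1.58 and Me1, malic enzyme, by 1.17. Scd2 was also above the 4-week hearts (1.56, adjusted p = 0.0226). The gene that fell was Gpam, the first acyltransferase of glycerolipid synthesis (-0.85, adjusted p = 0.0035), whose second probe set differed by 0.90 and was not called.

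**Figure D5:**
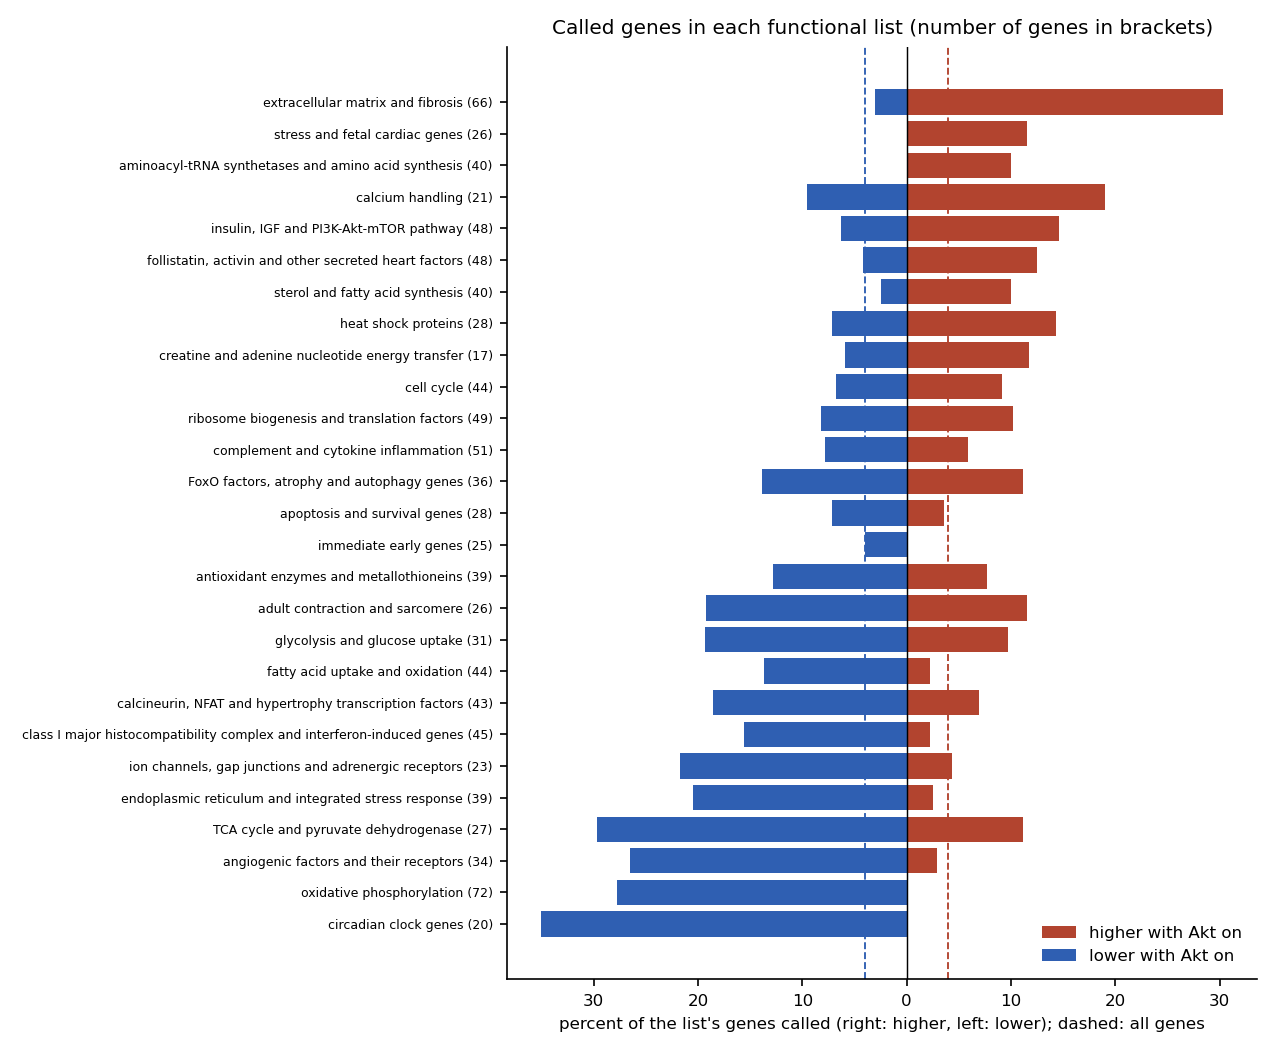
Percent of the genes of each of 27 functional lists that were called higher (red, to the right) or lower (blue, to the left) with Akt on at 6 weeks against before AAC, with the number of genes in brackets; dashed lines give the same over all genes, 3.92 and 3.98. Extracellular matrix has the longest bar to the right and circadian clock genes the longest to the left.

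The list of insulin, IGF and PI3K-Akt-mTOR genes, which act upstream and downstream of Akt, had 7 of 48 higher and 3 lower. Irs1, the adaptor that links the insulin receptor to PI3-kinase, fell from 10.83, 10.35 and 10.53 to 9.37, 9.31 and 9.04 (-1.33 ± 0.15, 2.52-fold, adjusted p = 0.00132). It was 1.24 below the 4-week hearts, which read 10.40 to 10.55 (adjusted p = 0.005). Akt2, the isoform of insulin-stimulated glucose uptake, fell by 0.81 (adjusted p = 0.00447) and was also below the 4-week hearts (-0.78, adjusted p = 0.0144); of its 3 probe sets 2 were lower. Deptor, an inhibitor of mTOR, fell by 0.91.

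The rises in the same list were of regulators at several levels. Pik3r3, a regulatory subunit of PI3-kinase, rose from 8.54, 8.85 and 8.89 to 9.71, 10.46 and 10.39 (1.43, adjusted p = 0.00531), and was 1.41 above the 4-week hearts (adjusted p = 0.0154). Ddit4, which inhibits mTOR complex 1 under stress, rose from 7.91, 7.55 and 7.68 to 9.13, 9.41 and 9.79 (1.73, 3.31-fold, adjusted p = 0.00499). Akt1s1 (1.02), Grb10 (0.75), Gsk3b (0.60), Igfbp5 (1.07) and Igf1 (0.96) were the others. The number higher was 2 without before-AAC heart 3, Akt-on heart 2 or Akt-on heart 3 and 3 without before-AAC heart 1 or 2. Irs1, Akt2, Ddit4 and Pik3r3 kept their calls without each heart.

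FoxO factors, atrophy and autophagy genes moved both ways, with 4 of 36 higher and 5 lower. Fbxo32, atrogin-1, the muscle ubiquitin ligase and a FoxO target, was 10.17, 10.03 and 10.24 before AAC and 8.79, 9.07 and 8.81 with Akt on (-1.26 ± 0.25, adjusted p = 0.0129), and 2 of its 3 probe sets were lower. Sesn1, a stress-induced inhibitor of mTOR signalling, fell from 11.37, 11.33 and 11.33 to 10.62, 10.56 and 10.65 (-0.73, adjusted p = 0.00876), and was below the 4-week hearts (-0.62, adjusted p = 0.0492). This was 1 of its 4 probe sets, and the others, which ran up to -0.02, were not called. Pink1, the kinase that marks damaged mitochondria for removal, fell by 1.01 (adjusted p = 0.0063). Foxo3 itself, 1 of 3 probe sets, had a difference of -1.76 at an adjusted p of 0.0494, with Akt-on hearts at 7.30 to 9.66; this call ended without any 1 of 8 hearts and with quantile scaling. Foxo1 differed by -0.03 (adjusted p = 0.956). The rises were those of Cat, catalase (0.75), Becn1 (0.70), Sesn3 (0.91) and Atg12 (0.71), and the number higher was 0 or 1 without any 1 of the hearts before AAC or without Akt-on heart 2 or 3; the number lower was 2 without before-AAC heart 3 and 3 without the other 4 of these. The call of Fbxo32 ended without before-AAC heart 3 or Akt-on heart 3.

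The circadian clock list had 7 of 20 genes lower and none higher, with a median difference of -0.45; the background is 3.98% lower. Dbp, a PAR-domain factor that is a direct output of the clock, read 11.03, 11.36 and 11.27 before AAC and 9.61, 9.67 and 9.13 with Akt on (-1.75 ± 0.22, 3.36-fold, adjusted p = 0.00228). At 4 weeks it read 11.33, 10.50 and 11.28, and the Akt-on hearts were 1.56 lower (adjusted p = 0.00948). Nr1d2, the repressor REV-ERBβ, fell from 11.13, 11.44 and 11.31 to 10.53, 10.43 and 10.24 (-0.89, adjusted p = 0.00413), also below the 4-week hearts (-0.88, adjusted p = 0.0127). Its second probe set differed by 0.01 and was not called. Per3, a period gene of the negative limb, fell from 9.03, 9.21 and 9.18 to 7.83, 7.69 and 6.87 (-1.68, adjusted p = 0.00684) with 3 of its 6 probe sets lower.

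Per1 fell by 1.13 (adjusted p = 0.028), Tef, the relative of Dbp, by 0.85 (adjusted p = 0.0209), and the casein kinases Csnk1d and Csnk1e, which phosphorylate period proteins, by 0.58 and 0.66. Csnk1d had 1 other probe set higher (1.22, adjusted p = 0.00551). Tef was lower in 1 of 3 probe sets, and the others, at -0.75 and 0.68, were not called. The number lower was 3 without before-AAC heart 2, before-AAC heart 3 or Akt-on heart 3 and 4 without Akt-on heart 2, and Dbp, Nr1d2 and Per3 kept their calls without each heart. With the β-actin ratio as a covariate the median of the list was -0.06, and its part was not tested further. The hour at which the hearts were taken is not given in the sources used here.

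The promoters of the clock genes that fell were searched for motifs of the clock. RefSeq windows of GRCm38.p6 were available for 6 of the 7 genes, 11 windows in all, and the 250 bases before each start were searched on both strands. The letters searched were CACGTG, the canonical E-box bound by CLOCK and its partner BMAL1, and TTATGTAA, the D-box bound by Dbp and Tef themselves. CACGTG stood in 3 of the 11 windows, 1 of Per1 and both of Tef, against 6.02% of all 32851 windows of the same length. TTATGTAA stood in 1, that of Per3, against 0.819% of all windows, and there it occurred in 2 places, 151 to 158 and 198 to 205 bases before the start. A match describes the letters only. Of the 4 windows that hold a match, 3 are given, 1 a gene, 5′ to 3′ on the strand of the gene, with the motif in capitals.
Per1, chr11:69098699-69098948, plus strand: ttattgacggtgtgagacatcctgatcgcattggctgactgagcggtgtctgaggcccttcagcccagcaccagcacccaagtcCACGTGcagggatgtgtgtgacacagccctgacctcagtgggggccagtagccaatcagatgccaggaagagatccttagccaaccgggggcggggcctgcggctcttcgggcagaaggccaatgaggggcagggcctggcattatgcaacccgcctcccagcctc
Per3, chr4:151044666-151044915, minus strand: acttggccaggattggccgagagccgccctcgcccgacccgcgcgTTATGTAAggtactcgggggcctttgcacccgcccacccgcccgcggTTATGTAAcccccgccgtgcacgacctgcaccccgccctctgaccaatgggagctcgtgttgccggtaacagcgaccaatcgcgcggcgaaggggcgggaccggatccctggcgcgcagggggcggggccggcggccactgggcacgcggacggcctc
Tef, chr15:81811164-81811413, plus strand: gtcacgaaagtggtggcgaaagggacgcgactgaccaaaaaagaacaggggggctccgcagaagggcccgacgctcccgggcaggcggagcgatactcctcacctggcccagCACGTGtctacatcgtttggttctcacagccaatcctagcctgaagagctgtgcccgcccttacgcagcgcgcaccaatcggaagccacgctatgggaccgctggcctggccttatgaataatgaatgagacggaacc
The windows of Dbp, Nr1d2 and Csnk1e held neither motif. The FoxO motif GTAAACA, present in 3.17% of all windows, was in none of the 11.

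Of 49 genes of ribosome biogenesis and translation 5 were higher and 4 lower. Eif2s2, a subunit of initiation factor 2, rose from 11.24, 11.11 and 11.27 to 11.80, 11.84 and 11.89 (0.63, adjusted p = 0.00559), and Eif2b1, a subunit of its exchange factor, by 0.97. Ubtf, which drives transcription of ribosomal RNA, fell by 0.62, and the elongation factor subunit Eef1d by 0.53. Ubtf was lower in 1 of 2 probe sets, the other differing by 0.17, and Eef1d in 1 of 4, with differences up to 0.39. Of 40 genes of tRNA charging and amino acid synthesis 4 were higher and 0 lower, where 7.90% of all genes were called. The median difference of this list was 0.004, with 20 genes above 0 and 20 below, and 33 had a mean signal at or above the chip's median. The 4 genes, Gars, Qars, Aars and Mthfd2, rose by 0.55 to 0.80. At most 1 of them was called without any 1 of the hearts before AAC or with Akt on. Qars was higher in 1 of 4 probe sets, with differences from -0.66 to 0.78. In translation the 5 higher became 2 or 3 without any 1 of the hearts before AAC, 4-week heart 2, Akt-on heart 2 or Akt-on heart 3, and the 4 lower became 1 and 2 without before-AAC heart 2 and 3.

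Of 39 genes of the endoplasmic reticulum and its stress response 8 were lower and 1 higher. Vldlr, a lipoprotein receptor that the stress kinase PERK induces, fell from 12.10, 12.29 and 12.20 to 10.69, 10.66 and 10.21 (-1.68 ± 0.26, adjusted p = 0.00476). Herpud1 and Syvn1, parts of the machinery that degrades misfolded proteins, fell by 1.00 and 0.79. The second probe set of Syvn1 differed by -0.13 and was not called. The chaperone Hyou1 fell by 0.81 in 1 of 3 probe sets, while the others, at -0.85 and 0.67, were not called. The number lower was 3 without any 1 of the hearts before AAC or without Akt-on heart 3 and 4 without Akt-on heart 2. Of 28 heat shock genes 4 were higher, among them Hspa4 (0.80 in 1 of 4 probe sets, adjusted p = 0.00736) and the small heat shock protein Hspb6 (0.88, adjusted p = 0.0226), and 2 lower. Hspb6, Hspb3 and Hspe1 lost their calls without any 1 of the hearts before AAC, 1 of the list was then higher, and without Akt-on heart 2 and 3 the number was 2 and 1. Lower heat shock genes numbered 0 without any 1 of the hearts before AAC or without Akt-on heart 3 and 1 without Akt-on heart 1 or 2.

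Inhibitors of the cell cycle moved in opposite directions. Cdkn1a, p21, rose from 7.84, 8.61 and 8.72 to 10.36, 10.20 and 10.88 in one probe set (2.09 ± 0.27, 4.26-fold, adjusted p = 0.00251), and by 3.71 in its second probe set. It was also above the 4-week hearts in the first (1.36, adjusted p = 0.0388). Cdkn1c, p57, fell from 9.64, 9.25 and 9.71 to 8.02, 7.97 and 7.72 (-1.63, adjusted p = 0.00151), and Cdkn1b, p27, by 0.96 (adjusted p = 0.0495). Among mitotic genes, Ccnb2, a cyclin, read 4.94, 3.22 and 4.46 before AAC and 7.50, 7.77 and 7.89 with Akt on (3.51, 11.4-fold, adjusted p = 0.00253), so that it moved from low signals to about the median of the chip. Ube2c, of the anaphase-promoting complex, rose by 2.97 and Birc5, survivin, by 2.19. In all, 4 of 44 cell cycle genes were higher and 3 lower, and 2 were higher without Akt-on heart 2, where Ube2c lost its call. The number lower was 1 without any 1 of the hearts before AAC or without Akt-on heart 3. Among genes of apoptosis, Mcl1, which protects mitochondria, fell by 0.81 (4 of 6 probe sets lower). Bcl2l11, which promotes cell death, fell by 0.98 (2 of 5 probe sets lower, with differences from -1.19 to 1.18). Bak1, which opens the outer membrane of mitochondria, rose by 1.30 (adjusted p = 0.00846). These called genes were 10.7% of the list, against 7.90% of all genes, and 20 of its 28 genes had a mean signal at or above the chip's median. The call of Bcl2l11 ended without before-AAC heart 2 or 3 or Akt-on heart 2 or 3, which left 1 of 28 genes lower in place of 2, while 2 were higher without before-AAC heart 1 and 3 without 4-week heart 3.

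Antigen presentation and interferon-induced genes were lower in 7 of 45 cases and higher in 1; 3 were lower without before-AAC heart 3 and 4 without before-AAC heart 1 or Akt-on heart 3. Psmb10, a catalytic subunit of the immunoproteasome, read 10.49, 10.27 and 10.36 before AAC and 9.16, 8.99 and 8.89 with Akt on (-1.36 ± 0.12, adjusted p = 0.000352). The 4-week hearts, at 10.38 to 10.42, lay within the range before AAC, and the Akt-on hearts were 1.38 lower (adjusted p = 0.000628). The other immunoproteasome subunits Psmb9 and Psmb8 fell by 0.82 and 0.76, its activator Psme1 by 0.60, and Rsad2, an antiviral enzyme, by 1.00. The class I genes gave readings that disagree within a gene. For H2-D1, 4 of 9 probe sets were higher, up to 3.26, 1 was lower (-1.09), and 4 were not called. The called one with the highest mean on chip 430A read 9.65, 9.46 and 9.43 before AAC, 12.09, 12.33 and 12.40 at 4 weeks and 12.17, 11.87 and 11.85 with Akt on. For H2-K1, 1 of 4 was higher (2.91) and 1 lower (-0.90). Class I genes are a polymorphic family of close copies, so these probe sets can read more than 1 gene; in the counts above H2-D1 is the 1 higher and H2-K1 is 1 of the 7 lower, each by 1 probe set, and neither settles a direction for its gene.

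Among genes of inflammation Cxcl12, a chemokine that attracts progenitor and immune cells, fell from 12.65, 12.60 and 12.64 to 11.01, 11.14 and 10.60 (-1.71 ± 0.23, adjusted p = 0.00272). This was 1 of its 3 probe sets, and the others, which ran up to 0.03, were not called. Ptgds, a prostaglandin D synthase, fell from 13.53, 12.87 and 13.21 to 11.48, 11.23 and 12.05 (-1.62, adjusted p = 0.00364) and was 1.71 below the 4-week hearts (adjusted p = 0.00856). Nfkbia, the inhibitor of NF-κB, fell by 0.78. Those that rose were Lcn2 (2.72, adjusted p = 0.021), Ccl8 (0.76) and Stat3, which had 1 probe set higher (0.80) and 1 lower (-1.05). In all, 4 of 51 genes were lower and 3 higher; 2 were lower without before-AAC heart 1 or 3 or Akt-on heart 2 or 3, and 1 was higher without before-AAC heart 3. No marker of macrophages (14), T and B lymphocytes (10) or neutrophils (7) was called; their medians were 0.20, -0.17 and -0.18, and 8, 1 and 1 of them had a mean signal at or above the chip's median.

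Secreted factors of the heart had 6 of 48 members higher and 2 lower, and 0 lower without before-AAC heart 1, 2 or 3 or Akt-on heart 2. Agt, angiotensinogen, the precursor of angiotensin II, read 4.85, 6.25 and 5.45 before AAC and 9.64, 7.81 and 9.38 with Akt on (3.43 ± 0.52, 10.8-fold, adjusted p = 0.0043), and was 3.95 above the 4-week hearts (adjusted p = 0.00717). Adm, adrenomedullin, a vasodilator peptide, rose from 7.03, 7.57 and 7.38 to 10.83, 8.91 and 9.43 (2.39, adjusted p = 0.00879). Fstl1, follistatin-like 1, a secreted glycoprotein, rose from 10.52, 11.11 and 10.86 to 12.07, 12.58 and 11.82 (1.33, adjusted p = 0.00729), and was 1.35 above the 4-week hearts (adjusted p = 0.0179). Smad2, a mediator of TGF-β and activin signals, rose by 0.77 (adjusted p = 0.00823), and its second probe set, at -0.28, was not called. Fstl3, an activin inhibitor, rose by 2.88 (adjusted p = 0.0328). Corin, the protease that processes natriuretic peptides, fell by 2.08 (adjusted p = 0.0365), with 8.66 to 10.01 before AAC and 8.32, 6.51 and 6.50 with Akt on.

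Transcription factors and signalling genes of hypertrophy were lower in 8 of 43 cases and higher in 3. Hdac7, a class IIa histone deacetylase, fell by 0.80 (adjusted p = 0.00585), and Mef2d, the transcription factor that such deacetylases restrain, by 0.63 (adjusted p = 0.00876). Hdac7 was lower in 1 of 2 probe sets and Mef2d in 1 of 3, with differences of Mef2d up to 0.19. Myocd, myocardin, the coactivator of Srf, fell by 1.14 and Srf by 0.59. Rgs4, which limits signalling by Gq-coupled receptors, fell from 9.07, 8.77 and 8.88 to 7.83, 7.80 and 7.96 (-1.04, adjusted p = 0.0121). Those that rose were Mapk9 (0.81), Tbx20 (0.84) and Gata4 (0.50). The number lower was 3 without before-AAC heart 2 or 3 and 5 without before-AAC heart 1 or Akt-on heart 3, and the number higher was 1, 1 and 0 without before-AAC heart 2, before-AAC heart 3 and Akt-on heart 3. Among immediate early genes 1 of 25 was called, Dusp1, a phosphatase of MAP kinases, which fell by 0.91; this call ended without before-AAC heart 2 or 3 or Akt-on heart 1 or 3, and 1 of 25 is close to the 3.98% of all genes. Among antioxidant genes 5 of 39 were lower and 3 higher; without before-AAC heart 3 these were 2 and 1, without Akt-on heart 3 they were 3 and 1, and 3 were lower without before-AAC heart 1 or Akt-on heart 2. The calls with the smallest p were those of the glutathione transferases Gstm1, which fell from 11.93, 11.92 and 11.96 to 11.05, 10.55 and 10.72 (-1.17, adjusted p = 0.00185), and Gstk1 (-1.11, adjusted p = 0.00307). Gss, glutathione synthetase, rose by 0.82, and Nqo1, a quinone reductase, fell by 0.60, a call that ended without before-AAC heart 2 or 3 or Akt-on heart 2.

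Several of the largest differences belonged to genes in none of the lists. Crybb1, a crystallin of the lens, read 4.86, 4.62 and 4.33 before AAC and 8.32, 8.57 and 9.19 with Akt on (4.09, 17.1-fold, adjusted p = 0.000314). It also was above the 4-week hearts (2.73, adjusted p = 0.00656). Arc, an immediate early gene of neurons, rose by 3.96, Slc17a7, a vesicular glutamate transporter, by 3.77, and Atp8a2, a phospholipid flippase, by 3.54 in 1 of 3 probe sets. Pitpnb, a phosphatidylinositol transfer protein, rose by 3.57 in 1 of 5 probe sets, and the 4-week hearts, at 7.62 to 8.01, were like the Akt-on hearts. Olfm1, olfactomedin 1, had the largest rise of all (5.03), from 2.93, 3.82 and 5.27 to 9.32, 8.79 and 8.99, and its call ended without before-AAC heart 1, before-AAC heart 2 or any 1 Akt-on heart. Ankrd39 (3.67) and Dnaic1, a dynein chain of cilia (3.51), rose from low signals, and the 4-week hearts covered a wide range in both, 3.98 to 6.68 and 3.57 to 7.11; the call of Dnaic1 ended without any 1 of the hearts before AAC.

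On the lower side, Lrrc4b, a synaptic adhesion protein, fell from 7.81, 8.13 and 7.82 to 4.61, 4.53 and 4.59 (-3.34 ± 0.27, 10.1-fold, adjusted p = 0.000285). Ces1d, a carboxylesterase that hydrolyses lipids, fell by 4.14 with all of its 3 probe sets lower; the 4-week hearts ranged from 7.46 to 10.57. Neat1, a nuclear non-coding RNA that builds paraspeckles, fell from 13.79, 13.57 and 13.60 to 12.09, 10.68 and 10.86 (-2.45, 5.45-fold, adjusted p = 0.00204), with 12.34 to 12.86 at 4 weeks, and its second probe set was not called (0.18). Mycn, a transcription factor of the Myc family (-2.55), Galnt15, a glycosyltransferase (-3.39), Arhgap9 (-3.31), and Doc2g, of the double C2 family (-2.83), fell as well, and all 4 were also below the 4-week hearts. Mycn was lower in 1 of 3 probe sets, with differences up to 0.30, and Galnt15 in 1 of 2. Smim27, a small membrane protein, fell by 3.28. Depp1, a FoxO target, fell by 2.89, but Akt-on heart 2, at 10.02, was near the unoperated hearts (10.66 to 11.11), and the calls of Depp1, Brd8 (-3.38) and Gbp6 (-2.71) ended without before-AAC heart 1, among other hearts.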

How the data were processed

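Each heart RNA was hybridised to an Affymetrix 430A and a 430B array. The deposited values are 1 signal intensity a probe set, computed by the authors with MAS5 per the submitters' processing notes; its version is not given in the sources used here. The 2% trimmed mean is about 500.2 on every 430A array and about 122.51 on every 430B array, so the values are on 1 scale between hearts within a chip. Of 45265 probe sets, 35041 with 1 gene symbol were analysed; 936 had several, 9160 none, and 128 were controls. From these log2(signal) was fitted in R 4.3.3 with limma 3.58.1, per chip over all 9 hearts, with a variance trend, no pseudocount and no filter, and p-values were adjusted over both chips by the Benjamini-Hochberg method. The script was tested on simulated data. A gene in a list is its probe set on 430A, or else 430B, with the highest mean. Named were the 14 largest rises and 14 largest falls with separate groups and a higher mean at or above the chip's median, leaving out clone and predicted-gene names, at most 4 called members a list by p, called marker genes, all probe sets of Akt1 and 20 preset genes. The members and lists were chosen with earlier results of these data known. Alternatives changed the offset, scaling, filter, variance model, samples, block, adjustment, covariates and summary of probe sets. Promoter windows are RefSeq's of GRCm38.p6.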

Additional observations from a re-analysis of the deposited data

How the results depend on the processing

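The calls depended on the β-actin covariate, the variance model, the summary of probe sets and single hearts. Against 2632 called, 1482 higher and 1150 lower, limma without a variance trend gave 727, 423 and 304, and the mean of all probe sets of a gene gave 1025, 576 and 449 genes. With the β-actin 3′/5′ ratio as a covariate limma gave 0, 0 and 0 (2597 at an unadjusted p under 0.05). Leaving out each heart in turn gave 968 to 3095 called, 580 to 1633 higher and 388 to 1462 lower. The cause was not tested. Counts under the other settings ranged from 1926 to 3075 and stayed within 1.5 times. With the mean of all probe sets of a gene, 4 genes changed sign: Gpam to 0.023, Asph to 0.35, H2-K1 to 0.35 and Stat3 to -0.048. No pairing of hearts by replicate number was seen. Same-numbered hearts of both groups correlated at -0.20 to -0.03 in their deviations from the group mean, and 0 of 9 correlated best with their own number. The varying atrial content enters these deviations, so a shared batch could go unseen. With the replicate block 1926 probe sets were called, 1067 higher and 859 lower. Signals near the floor of the arrays, such as those of Ryr1 or Olfm1 before AAC, limit the precision of the largest folds.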
